A study of Mus musculus with 6 samples.

Results

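The lipoxygenase and cyclooxygenase pathway was followed through 10 genes of the deposited mouse table, *Pla2g4a*, *Alox5*, *Alox5ap*, *Lta4h*, *Ltc4s*, *Alox12*, *Alox15*, *Ptgs1*, *Ptgs2* and *Hpgd*, out of 55367 genes listed. They were chosen by symbol, as the enzymes that release arachidonate and turn it into leukotrienes and prostaglandins, with their differences between the groups already known, so these differences are described here without p-values. Arachidonic acid is a fatty acid stored in membrane phospholipids. Once cytosolic phospholipase A2 frees it, lipoxygenases add oxygen to give hydroperoxy acids and leukotrienes, and cyclooxygenases give prostaglandin H2, from which prostaglandins and thromboxane are made. Myeloid cells are the best known makers of leukotrienes, which draw in and activate neutrophils, mast cells and eosinophils.

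RNA-seq compared leukemia stem cells (LSCs), the fraction of a leukemia that can regrow it, between WT and Piezo1cKO mice, with 3 libraries in each group. *Piezo1* encodes a mechanically gated cation channel. WT donors were Piezo1 fl/fl littermates and Piezo1cKO donors were Mx1-cre; Piezo1 fl/fl, both injected with poly(I:C), 8 to 10 weeks old and on a C57BL/6J background. Lin- bone marrow cells of these donors were infected with a retrovirus carrying MLL-AF9 and YFP and transplanted into irradiated recipients, and LSCs were sorted from leukemic bone marrow. Mx1-cre is switched on by interferon and deletes floxed genes in many cell types, and both groups carry the retroviral oncogene and had the interferon-inducing treatment. Which round of transplantation the libraries came from, and whether each came from its own mouse, is not given in the sources used here, so the p-values below measure only the spread between these libraries, which may be technical.

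Deposited values are on a log2 scale and pulled towards each gene's mean. Undoing that pull returned whole reads, 14112077 to 15483530 on genes per library. Below, normalized reads are recovered reads divided by the library's size factor (0.957 to 1.04), and errors are SDs over the 3 libraries of a group. Folds and percentages of WT come from a group's summed reads divided by its summed size factors. The reads carry no molecular identifiers, so limits drawn from them cover counting error only. *Piezo1* itself had 104, 92 and 113 recovered reads in WT libraries 1 to 3 and 35, 58 and 45 in Piezo1cKO libraries 1 to 3. Its normalized reads in Piezo1cKO LSCs were 46.1% of WT. WT libraries 1 and 2 stood apart in very low genes, with 3230 and 3532 genes at exactly 1 read against 1334 to 2004 in the other 4 libraries. The genes of the LSC gate *Kit*, *Cd34*, *Fcgr3* and *Fcgr2b* were read in every library. *Fcgr2b*, an Fc receptor gene like *Fcgr3*, fell to 48.1% of WT in Piezo1cKO LSCs (limma adjusted p = 1.29e-13). Its normalized reads were 3468 ± 83.7 in WT and 1667 ± 79.4 in Piezo1cKO LSCs. In Piezo1cKO LSCs *Kit* was 1.36-fold (limma adjusted p = 8.42e-09) and *Cd34* 1.56-fold higher in normalized reads (limma adjusted p = 8.32e-12), and *Fcgr3* was at 98.4% of WT (limma adjusted p = 0.574). *Ly6a*, which encodes Sca-1, had 1, 1 and 0 recovered reads in WT and 10, 17 and 7 in Piezo1cKO libraries (limma adjusted p = 0.000535). The granulocyte-monocyte progenitor genes *Mpo* and *Elane* were lower in Piezo1cKO LSCs, at 54.5% and 47.0% of the WT normalized reads.

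On the deposited scale, 8 of the 10 members had a mean value of at least 1 and entered the fit, while *Ptgs2* and *Alox15* did not. At an adjusted p under 0.05 in the limma fit, 3 members were higher in Piezo1cKO LSCs (*Alox5*, *Hpgd* and *Alox5ap*), against 31.6% of all 16746 genes tested, and 3 were lower (*Lta4h*, *Pla2g4a* and *Alox12*), against 31.4% of all genes. Differentially expressed genes (DEGs) also had to pass an absolute log2 fold change of 1. By that rule *Alox5* was the 1 member among the higher DEGs, which made up 0.257% of the genes tested, and 0 members were among the lower DEGs, 0.561% of the genes tested. On recovered reads, fitted for 17352 genes, *Alox5* was a higher DEG, as were 12.7% of all genes, and *Lta4h* and *Alox12* were lower DEGs, as were 12.2%. The median log2 fold change of the 8 members was -0.02 on the deposited scale, with 0.00 over all genes tested. For 6 of these 8 members the normalized reads of the groups did not overlap, as for 66.6% of all 16746 genes. Since the members were selected on this contrast, nothing is read from these counts.

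**Figure D1:**
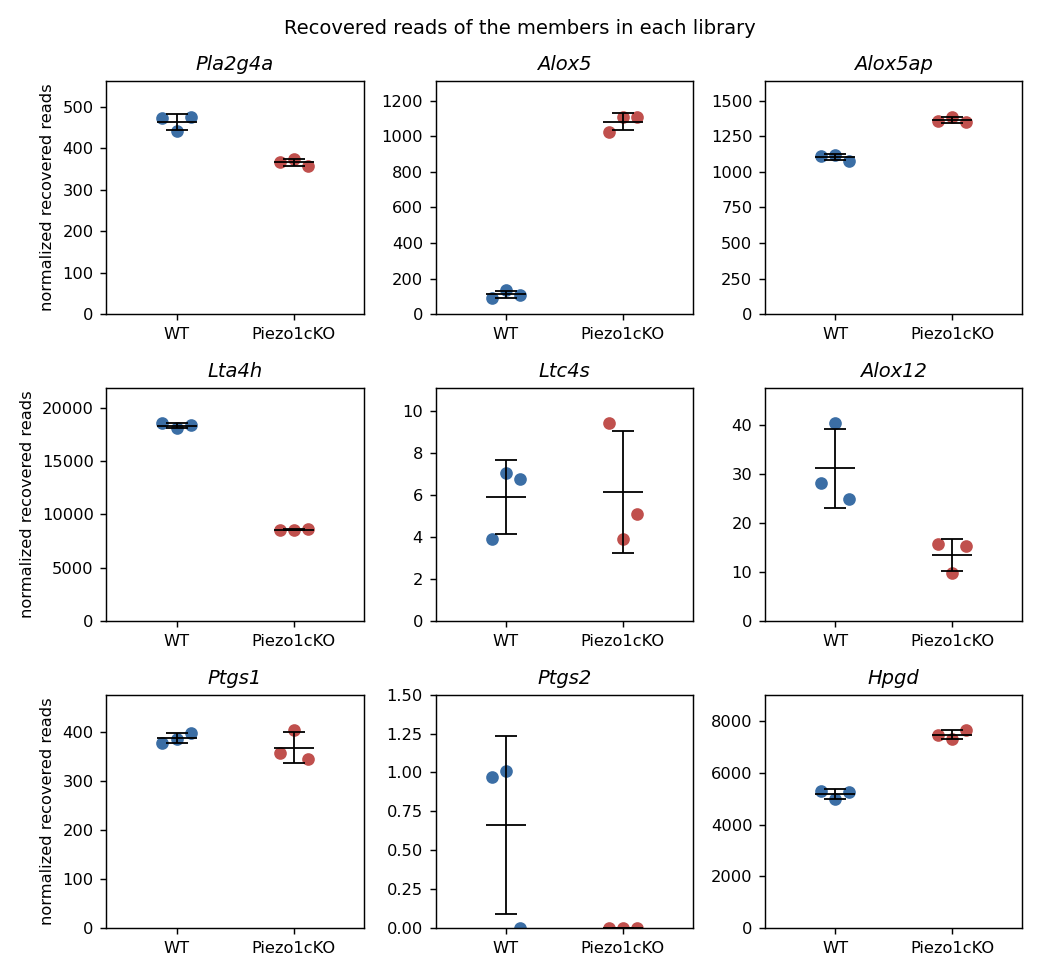
Normalized recovered reads (vertical axes, from 0, with a range of their own in each panel) of the 9 members with any read, for the 3 WT and 3 Piezo1cKO libraries, each point 1 library and each bar the mean ± SD. *Alox5* goes from about 111 to 1081 normalized reads and *Lta4h* from 18318 to 8564, while the groups of *Ptgs1*, *Ltc4s* and *Ptgs2* overlap.

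The pathway starts with arachidonate release. *Pla2g4a* (chr1:149829618-149961290, minus strand, GRCm38) encodes cytosolic phospholipase A2 alpha, the calcium-activated enzyme that cuts arachidonate from phospholipids and so feeds both arms. It had 487, 438 and 495 recovered reads in the WT libraries and 352, 383 and 351 in the Piezo1cKO libraries. Every Piezo1cKO library lay below every WT library. Normalized reads were 464 ± 18.8 in WT and 366 ± 8.21 in Piezo1cKO LSCs (n = 3 each), 78.9% of WT. The log2 fold change was -0.19 (standard error 0.04) on the deposited scale and -0.34 (0.06) on recovered reads.

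The 5-lipoxygenase arm held the member with the largest difference on both scales. *Alox5* (chr6:116410077-116461178, minus strand) encodes 5-lipoxygenase, which makes leukotriene A4 and is the step from which every leukotriene follows. The WT libraries held 94, 133 and 113 recovered reads of it and the Piezo1cKO libraries 981, 1136 and 1091. The groups were far apart, and the lowest Piezo1cKO library had 981 reads against 133 in the highest WT library. Normalized reads were 111 ± 21.6 in WT and 1081 ± 48.5 in Piezo1cKO LSCs, 9.74-fold higher. On the deposited scale the values were 7.59, 7.81 and 7.68 in WT and 9.52, 9.60 and 9.60 in Piezo1cKO libraries, a log2 fold change of 1.88 (standard error 0.05), the sixth highest of the 16746 genes tested. On recovered reads the log2 fold change was 3.29 (0.11). The deposited scale thus showed less of the difference than the reads, as the pull towards the gene's mean makes every difference smaller.

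*Alox5ap* (chr5:149264767-149288153, plus strand) encodes FLAP, the nuclear membrane protein that hands arachidonate to 5-lipoxygenase. Its recovered reads were 1148, 1107 and 1119 in WT and 1299, 1424 and 1325 in Piezo1cKO libraries. The groups did not overlap, but the shift was small beside that of its partner enzyme: normalized reads were 1103 ± 22.6 in WT and 1364 ± 20.9 in Piezo1cKO LSCs, 1.24-fold higher, with a log2 fold change of 0.21 (standard error 0.03) on the deposited scale. Exons of *Alox5ap* share 189 bases with *Gm19719* on the other strand, which had 0 to 22 reads in any library. The library kit does not mark strand, so reads in these bases cannot be told apart.

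*Lta4h* (chr10:93453411-93484875, plus strand) encodes leukotriene A4 hydrolase, which turns the product of 5-lipoxygenase into leukotriene B4. It was among the most strongly read members, with about 19088, 17919 and 19073 recovered reads in the WT libraries and about 8195, 8758 and 8446 in the Piezo1cKO libraries, counts that come back less exactly at this height. It moved the opposite way to *Alox5*, with no overlap. Normalized reads were 18318 ± 220 in WT and 8564 ± 28.7 in Piezo1cKO LSCs, 46.7% of WT. The log2 fold change was -0.81 (standard error 0.02) on the deposited scale, short of the DEG threshold, and -1.10 (0.02) on recovered reads, past it.

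*Ltc4s* (chr11:50236461-50238616, minus strand) encodes leukotriene C4 synthase, which joins glutathione to leukotriene A4 and opens the cysteinyl leukotriene branch. It was barely read, with 4, 7 and 7 recovered reads in WT and 9, 4 and 5 in Piezo1cKO libraries. The groups overlapped, and the log2 fold change on recovered reads was 0.00 with a standard error of 0.46, so a difference of moderate size was not detectable at this depth. The antisense gene *Gm26542*, which shares 268 exonic bases with it, had 0 to 1 reads in WT and 7 to 9 in Piezo1cKO libraries, and without strand the reads of the shared bases are uncertain.

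**Figure D2:**
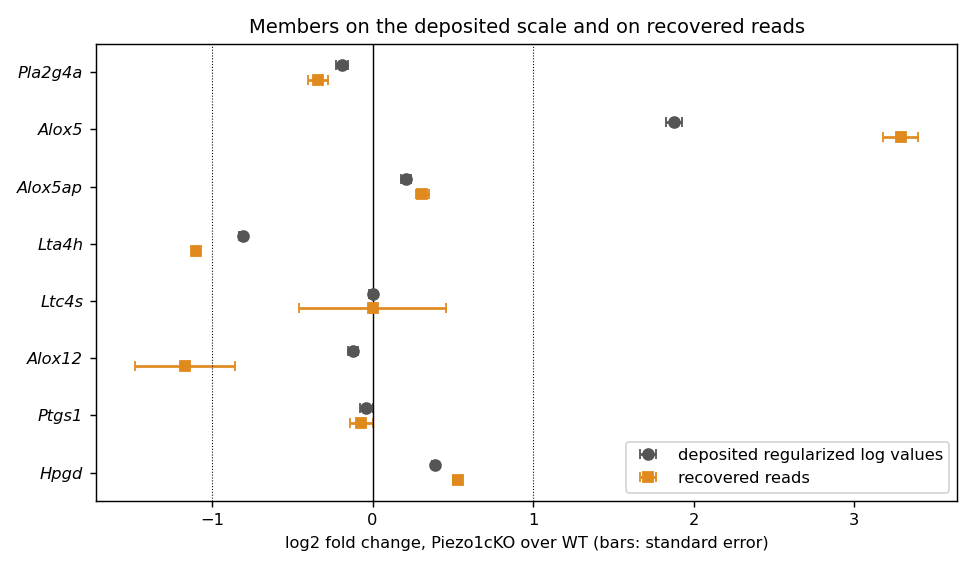
Log2 fold change of Piezo1cKO over WT LSCs (horizontal axis, dotted lines at -1 and 1) for the 8 members in the fit, from the deposited values (circles) and from the recovered reads (squares), with bars for the standard error. *Alox5* lies at 1.88 and 3.29, *Lta4h* at -0.81 and -1.10, and *Alox12* moves from -0.12 to -1.17 once the pull is undone.

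Promoters of members that differed between the groups were read for shared letters. The 250 bases before the annotated start of the members with the largest log2 fold changes on the deposited scale, *Alox5*, *Hpgd* and *Lta4h*, are shown 5′ to 3′ on the strand of the gene, from RefSeq on GRCm38.p6. Capitals mark matches to the 7 motifs searched on both strands. They lie at chr6:116461179-116461428 (minus strand), chr8:56294302-56294551 (plus strand) and chr10:93453146-93453395 (plus strand).
Alox5: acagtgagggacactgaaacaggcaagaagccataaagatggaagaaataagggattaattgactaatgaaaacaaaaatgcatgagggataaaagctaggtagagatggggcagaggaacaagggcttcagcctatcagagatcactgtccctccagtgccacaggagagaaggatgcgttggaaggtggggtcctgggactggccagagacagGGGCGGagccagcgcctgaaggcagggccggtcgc
Hpgd: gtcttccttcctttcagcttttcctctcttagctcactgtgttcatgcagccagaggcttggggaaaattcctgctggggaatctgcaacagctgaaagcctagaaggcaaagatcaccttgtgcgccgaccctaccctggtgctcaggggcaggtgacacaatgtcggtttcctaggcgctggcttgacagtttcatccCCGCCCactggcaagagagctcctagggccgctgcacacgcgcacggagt
Lta4h: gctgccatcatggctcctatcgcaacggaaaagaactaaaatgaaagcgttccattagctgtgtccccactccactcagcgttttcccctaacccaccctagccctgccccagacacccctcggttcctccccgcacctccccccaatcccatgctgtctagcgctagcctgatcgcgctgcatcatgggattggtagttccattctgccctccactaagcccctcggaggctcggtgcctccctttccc
The capitals in *Alox5* and *Hpgd* are a GC box (GGGCGG), 35 bases before the start of *Alox5* and, on the reverse strand, 50 bases before that of *Hpgd*, and the *Lta4h* window held no match. A GC box was in 32.7% of 32841 RefSeq promoter windows of the same length. The hypoxia response core (ACGTG) was in 16.6% of these windows. The TATA box, as TATAAA, was in 12.4%. The C/EBP-ATF response element (TGATGNAA) was in 3.45% and paired C/EBP half-sites (TTGCNNAA), which can overlap it, in 9.57%. The motif of the myeloid factor PU.1 (GAGGAAGT) was in 2.44%. The letters bound by GATA factors, AGATAA, were in 9.99%. Of the 8 members with an entry, 4 had a GC box (*Alox5*, *Hpgd*, *Alox12* and *Ptgs2*), *Ptgs2* had the paired C/EBP half-sites, *Ptgs1* the PU.1 letters, and *Pla2g4a* a TATA box on the reverse strand at its second start. No window of these 8 members held the hypoxia response core, the C/EBP-ATF element or the letters of GATA factors. A match is a description of these letters and not a binding site.

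The 12- and 15-lipoxygenases were little read. *Alox12* (chr11:70241457-70255353, minus strand) encodes the platelet-type 12-lipoxygenase. It had 29, 40 and 26 recovered reads in WT and 15, 10 and 15 in Piezo1cKO libraries. The groups were both low and did not overlap. Normalized reads were 31.2 ± 8.11 in WT and 13.6 ± 3.31 in Piezo1cKO LSCs, 43.5% of WT. On the deposited scale, where genes with few reads are pulled most, this was a log2 fold change of -0.12 (standard error 0.03), against -1.17 (0.31) on recovered reads. Without WT replicate 2 the latter was -0.98 and without Piezo1cKO replicate 2 it was -0.95, short of the DEG threshold. *Alox15* (chr11:70344152-70352031, minus strand), the 12/15-lipoxygenase of macrophages and eosinophils, was listed at 0 in all 6 libraries, and a count of 0 allows up to 3 reads in each.

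The cyclooxygenases were read mainly as the constitutive form. *Ptgs1* (chr2:36230426-36252272, plus strand) encodes COX-1, the enzyme of steady prostaglandin production. Its recovered reads were 390, 383 and 415 in WT and 342, 415 and 339 in Piezo1cKO libraries. The groups overlapped, with Piezo1cKO library 2 above all 3 WT libraries once normalized. Normalized reads were 388 ± 10.5 in WT and 369 ± 31.4 in Piezo1cKO LSCs, and the log2 fold change was -0.04 (standard error 0.04) on the deposited scale, a difference within the spread between libraries. *Gm43621*, on the other strand, shares 148 exonic bases with it and had 0 to 3 reads. *Ptgs2* (chr1:150100031-150108227, plus strand) encodes COX-2, the form induced by inflammatory signals, and had 1, 1 and 0 recovered reads in WT and 0, 0 and 0 in Piezo1cKO libraries. Both groups were thus at or under 3 reads, and the single reads fell in the WT libraries that also held the most genes with exactly 1 read.

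Prostaglandin breakdown had the member with the highest mean level per exon length, with all annotated exons of a gene merged. *Hpgd* (chr8:56294585-56321043, plus strand) encodes 15-hydroxyprostaglandin dehydrogenase, which starts the inactivation of prostaglandins. It had about 5463, 4931 and 5485 recovered reads in WT and about 7159, 7501 and 7525 in Piezo1cKO libraries. All Piezo1cKO libraries lay above all WT libraries. Normalized reads were 5185 ± 181 in WT and 7482 ± 173 in Piezo1cKO LSCs, 1.44-fold higher, with a log2 fold change of 0.39 (standard error 0.02) on the deposited scale and 0.53 (0.03) on recovered reads.

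Leaving out any 1 library kept the sign of 7 of these 8 members on both scales. *Ltc4s*, whose groups overlapped, kept its sign in 4 of the 6 fits. The log2 fold change of *Alox5* ran from 1.83 to 1.94 on the deposited scale over these fits and that of *Lta4h* from -0.82 to -0.80.

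Levels were compared between members per exon length, as RPKM, recovered reads scaled to library depth and exon length. This length covers all annotated exons of a gene merged, and the order of close members depends on it. By normalized reads alone *Lta4h* was above *Hpgd*, at 18318 against 5185 in WT and 8564 against 7482 in Piezo1cKO LSCs. In WT *Pla2g4a* was likewise above *Ptgs1*, at 464 against 388. In WT LSCs *Hpgd* (207 ± 6.87 RPKM) and *Lta4h* (201 ± 2 RPKM) came first, with overlapping libraries. *Alox5ap* followed at 52.1 ± 1.04, *Ptgs1* at 6.70 ± 0.192, *Pla2g4a* at 4.87 ± 0.191 and *Alox5* at 1.82 ± 0.357 RPKM, with no overlap between neighbours. *Alox12* (0.512 ± 0.134) and *Ltc4s* (0.390 ± 0.117) overlapped, and *Ptgs2* was last at 0.00966. The breakdown enzyme and the hydrolase were thus far above the oxygenases upstream of them, *Ptgs1* and *Ptgs2* for *Hpgd* and *Alox5* for *Lta4h*. In Piezo1cKO LSCs *Hpgd* stood alone at 302 ± 7.02 RPKM, above *Lta4h* at 95.3 ± 0.358 and *Alox5ap* at 65.3 ± 1.02. *Alox5* moved from place 6 to place 4 at 17.9 ± 0.823, past *Ptgs1* at 6.45 ± 0.552 and *Pla2g4a* at 3.89 ± 0.0863. *Ltc4s* (0.410 ± 0.193) and *Alox12* (0.225 ± 0.0549) came after them, the lowest library of the first at 0.261 and the highest of the second at 0.260 RPKM.

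**Figure D3:**
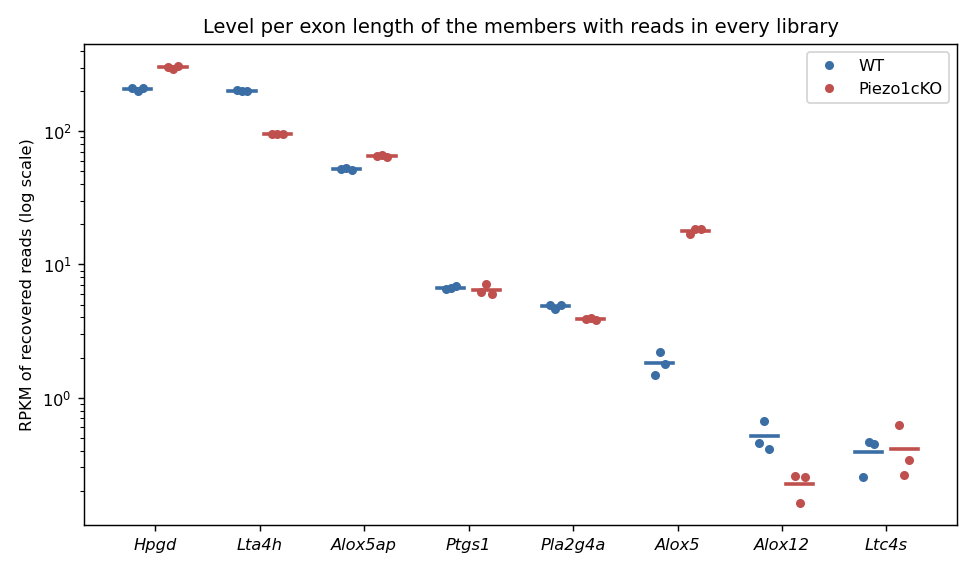
RPKM of recovered reads (vertical axis, log scale) of the 8 members with reads in every library, ordered by their WT level, each point 1 library and each line a group mean. *Alox5* goes from 1.82 to 17.9 RPKM and passes *Ptgs1* and *Pla2g4a*, while *Hpgd* keeps the first place at 207 and 302 RPKM.

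The balance within the 5-lipoxygenase arm differed between the groups. The ratio of *Alox5* to *Alox5ap* in RPKM was 0.0283, 0.0416 and 0.0349 in WT and 0.261, 0.276 and 0.285 in Piezo1cKO libraries. The ratio of *Lta4h* to *Alox5* was 114 ± 23.0 in WT and 5.34 ± 0.244 in Piezo1cKO LSCs. Across the arms, the ratio of *Alox5* to *Ptgs1* was 0.271 ± 0.0516 in WT and 2.78 ± 0.235 in Piezo1cKO LSCs, so the 5-lipoxygenase transcript went from the lower to the higher of the pair. *Hpgd* over *Ptgs1* was 30.8 ± 1.34 in WT and 47.1 ± 4.87 in Piezo1cKO LSCs. In none of these 4 ratios did the groups overlap, and each rests on members chosen with their differences known.

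The genes whose deposited values, centred on their own mean over the 6 libraries, lay closest to those of *Alox5* were *Mmp8* (neutrophil collagenase, root mean square difference 0.076), *Ndufa12-ps* (0.101), *Lpcat2* (0.111), *Npy* (0.113) and *Tsc22d1* (0.183). With 2 groups of close replicates, this measure mostly finds genes with a like difference between the groups. Their log2 fold changes on the deposited scale were 1.57 to 1.88, so no shared regulation is read from the match. *Ndufa12-ps* is a pseudogene, and its reads can come from its parent gene. *Mmp8* had 39, 42 and 49 recovered reads in WT and 623, 639 and 616 in Piezo1cKO libraries. *Lpcat2*, the second closest with a coding transcript, belongs to the same lipid pathway and is taken up next.

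A list of 103 other eicosanoid pathway genes in 8 groups by role was read in the same fit. Of these, 63 were tested, and at an adjusted p under 0.05 26 rose and 19 fell in Piezo1cKO LSCs, where 31.6% of all genes tested were higher and 31.4% lower. *Lpcat2* and *Cyp4f18* were DEGs, both higher, and 0 were lower DEGs, while on recovered reads 10 were higher and 10 lower DEGs, beside 12.7% and 12.2% of all genes. The counts by role that follow are small and are given as descriptions beside these shares. The median log2 fold change of the 63 was 0.03 on the deposited scale. Adjusted p-values below are from limma with Benjamini-Hochberg adjustment over all genes tested, and folds are of summed reads over summed size factors.

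Most genes of the arachidonate uptake and remodelling list help to put the fatty acid back into phospholipids. Of the 8 in the list, 4 rose and 2 fell. *Lpcat2* encodes an acyltransferase that also makes platelet-activating factor in inflammatory cells. It had 104, 99 and 93 recovered reads in WT and 863, 845 and 877 in Piezo1cKO libraries, 9.01-fold higher (log2 fold change 1.73 ± 0.04 SE on the deposited scale, limma adjusted p = 2.28e-17). Of the same list, *Lpcat1*, another lysophosphatidylcholine acyltransferase, rose 1.87-fold (limma adjusted p = 8.84e-10) and *Mboat7*, which favours arachidonate for phosphatidylinositol, rose 1.22-fold (limma adjusted p = 0.000158). *Lclat1*, also an acyltransferase of phosphatidylinositol, fell to 51.4% of WT (limma adjusted p = 1.39e-07). The 2 genes of the list not past an adjusted p of 0.05 were *Lpcat3* and *Mboat1*. They were at 103% (limma adjusted p = 0.502) and 99.9% of WT (limma adjusted p = 0.985), and were named after their values were seen.

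Among other genes of arachidonate release, 4 of 13 tested rose and 5 fell, and 4 of the 25 in the list were at 0 in every library. *Anxa1*, whose product annexin A1 was first known as an inhibitor of phospholipase A2, rose 1.59-fold, from 1424 ± 32.8 to 2270 ± 95.5 normalized reads (limma adjusted p = 2.17e-10). *Faah*, the hydrolase of the arachidonate amide anandamide, fell to 40.2% (limma adjusted p = 1.52e-06) and the secreted phospholipase *Pla2g12a* to 71.3% of WT (limma adjusted p = 8.72e-05).

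Genes that handle or sense leukotrienes showed 7 of 14 higher and 2 lower. *Cyp4f18* encodes a cytochrome P450 that hydroxylates leukotriene B4 in mouse myeloid cells and so begins its removal. It had 2819, 2789 and 2842 recovered reads in WT and 8506, 9872 and 9236 in Piezo1cKO libraries, 3.37-fold higher (log2 fold change 1.27 ± 0.03 SE on the deposited scale, limma adjusted p = 6.46e-18). Its relatives *Cyp4f13* and *Cyp4f16* rose 1.40-fold (limma adjusted p = 3.93e-08) and 1.39-fold (limma adjusted p = 3.98e-06). *Cysltr1*, a receptor for cysteinyl leukotrienes, rose 2.24-fold, from 58.5 ± 3.16 to 131 ± 13.5 normalized reads (limma adjusted p = 4.35e-07). *Ltb4r1*, the high-affinity receptor for leukotriene B4, rose 1.11-fold (limma adjusted p = 0.029), a call lost in 5 of the 6 fits that leave out 1 library. *Cysltr2* had 3, 0 and 1 reads in WT and 0, 0 and 0 in Piezo1cKO libraries. *Mgst2*, a glutathione transferase that can also make leukotriene C4, fell to 88.9% of WT (limma adjusted p = 0.00282) and was far above *Ltc4s* per exon length, at 41.7 RPKM in WT and 37.6 RPKM in Piezo1cKO LSCs.

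Of the list of other lipoxygenases and of lipoxin and resolvin genes, 2 of 5 rose and 3 fell. *Cotl1*, which encodes an actin-binding protein that also binds 5-lipoxygenase, rose 1.74-fold, from 330 ± 16.4 to 574 ± 40.5 normalized reads (limma adjusted p = 1.14e-08). *Gpr18*, a receptor for resolvin D2, fell to 81.2% of WT (limma adjusted p = 0.00603). The formyl peptide receptor genes *Fpr1* and *Fpr2* and *Alox12b* were at 0 in every library.

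Prostanoid synthases, which turn prostaglandin H2 into the single prostaglandins and thromboxane, showed 2 of 10 higher and 3 lower. *Ptges2*, a prostaglandin E synthase, had 579, 589 and 609 recovered reads in WT and 262, 293 and 271 in Piezo1cKO libraries and fell to 48.0% of WT (log2 fold change -0.60 ± 0.03 SE on the deposited scale, limma adjusted p = 4.76e-11). *Hpgds*, the hematopoietic prostaglandin D synthase, fell to 27.9%, from 27.9 ± 8.64 to 7.76 ± 0.618 normalized reads (limma adjusted p = 0.000334). *Cbr1*, a carbonyl reductase that acts on prostaglandin E2, rose 1.79-fold (limma adjusted p = 2.14e-06), and *Tbxas1*, thromboxane synthase, rose 1.45-fold (limma adjusted p = 0.000153). The inducible prostaglandin E synthase *Ptges* was at 115 ± 9.28 and 108 ± 3.61 normalized reads (limma adjusted p = 0.471), and *Ptgds* had 1 to 8 reads in any library (limma adjusted p = 0.556).

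The 4 genes tested for prostanoid breakdown and transport each rose, 3 of them (*Abcc4*, *Ptgr1* and *Ptgr2*) by 1.15- to 1.26-fold. *Slco3a1*, a prostaglandin transporter, had 27, 28 and 31 recovered reads in WT and 133, 155 and 130 in Piezo1cKO libraries, 5.02-fold higher (limma adjusted p = 9.48e-11). *Ptgr1* and *Ptgr2*, the reductases that act after the product of *Hpgd*, rose 1.20-fold (limma adjusted p = 0.000436) and 1.26-fold (limma adjusted p = 0.0014). Among prostanoid receptors 1 of 6 rose and 4 fell. *Ptger4*, which encodes the prostaglandin E2 receptor EP4, had 28, 31 and 32 recovered reads in WT and 105, 114 and 106 in Piezo1cKO libraries, 3.69-fold higher (limma adjusted p = 3.61e-09). The other prostaglandin E2 receptor *Ptger2* fell to 55.7% (limma adjusted p = 0.0145), the prostacyclin receptor *Ptgir* to 53.7% (limma adjusted p = 2.81e-05) and the thromboxane receptor *Tbxa2r* to 37.5% (limma adjusted p = 0.0173). The calls of *Ptger2* and *Tbxa2r* rest on few reads, at most 39 and 13 in any library, and were lost in 4 and 2 of the 6 fits that leave out 1 library. Of the 14 epoxygenase and epoxide hydrolase genes, which open a further route from arachidonate, 7 were at 0 in every library, 3 were tested, 2 of these rose and 0 fell.

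**Figure D4:**
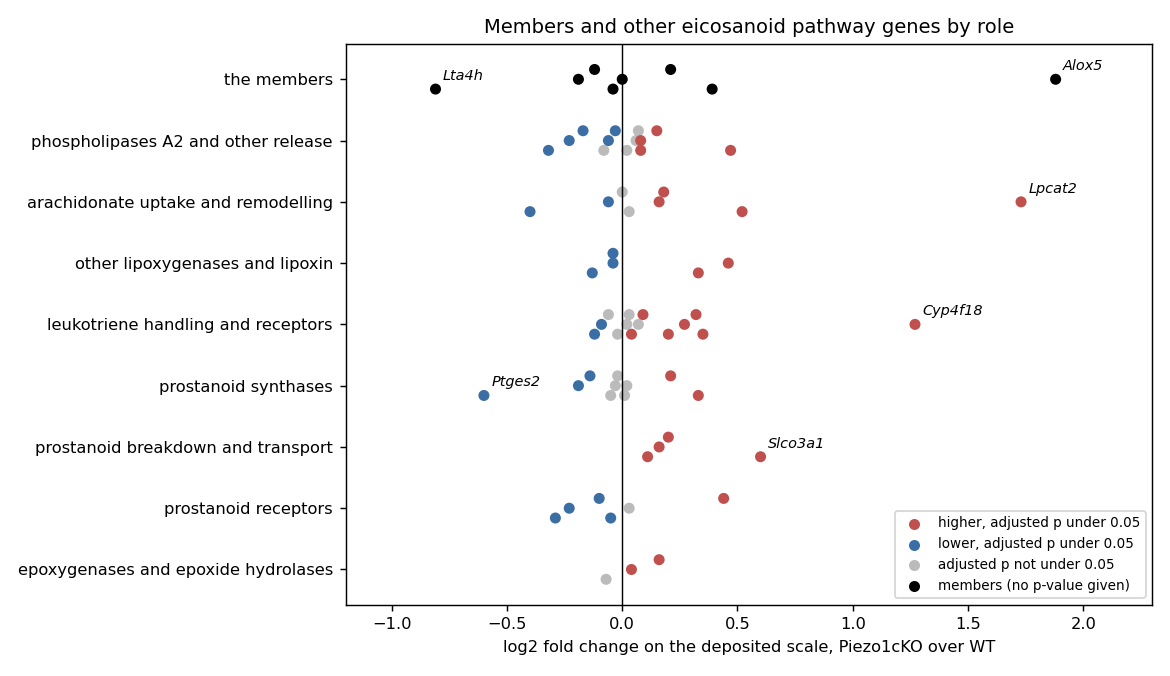
Log2 fold change on the deposited scale of Piezo1cKO over WT LSCs (horizontal axis) for the 8 members in the fit (black) and the 63 other pathway genes tested, 1 point per gene, by role (rows) and by whether the gene was higher, lower or not past an adjusted p of 0.05. *Alox5*, *Lpcat2* and *Cyp4f18* lie beyond 1, and the other points lie between -0.81 (*Lta4h*) and 0.60 (*Slco3a1*).

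Several cell types other than LSCs are rich in these enzymes, mast cells in *Alox5* and *Hpgds*, platelets in *Alox12*, eosinophils and macrophages in *Alox15*, so markers of cells that the sorted fraction could hold were read beside the members. In bulk RNA, fewer cells of a type and less RNA per cell cannot be told apart. The counts by marker list that follow are small. By the limma threshold used for the pathway lists, 31.6% of all genes tested rose and 31.4% fell. The marker counts are descriptions beside these shares, and no list was tested against them. Of the mast cell and basophil list, 8 of 10 genes tested rose and 1 fell, and the summed normalized reads of the list ran from 5029 to 5286 in WT and from 15884 to 16019 in Piezo1cKO libraries. *Cpa3*, mast cell carboxypeptidase, rose 8.83-fold (limma adjusted p = 5.47e-20), *Hdc*, which makes histamine, 4.52-fold (limma adjusted p = 2.18e-18), and the basophil protease gene *Prss34* 1.95-fold (limma adjusted p = 1.07e-13). The mast cell protease genes of the list were split. *Cma1* went from 0 reads in every WT library to 23, 20 and 17 in the Piezo1cKO libraries (limma adjusted p = 2.2e-06) and *Tpsb2* from 0, 1 and 0 to 21, 17 and 19 (limma adjusted p = 3.49e-06), while *Tpsab1* and *Mcpt4* had at most 2 reads in any library. The 1 lower gene of the list was *Il1rl1*, with 17, 19 and 27 reads in WT and 11, 9 and 7 in Piezo1cKO libraries (limma adjusted p = 0.00875). *Fcer1a*, with 5 to 18 reads in any library, was not past the threshold (limma adjusted p = 0.149). These 4 protease genes, *Il1rl1* and *Fcer1a* were chosen after their values were seen.

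The neutrophil list went mostly the other way, with 7 of 10 lower and 1 higher, and its sum ran from 3850 to 4001 normalized reads in WT and from 1169 to 1214 in Piezo1cKO libraries. *Ngp* fell to 10.9% (limma adjusted p = 6.42e-18) and *Fcnb* to 14.1% of WT (limma adjusted p = 1.08e-17), and *Mmp8* rose 14.9-fold (limma adjusted p = 1.03e-17). *Retnlg* was at 0 in every library and *Ly6g* had 1 read in all. Of the megakaryocyte and platelet list 3 of 9 rose and 5 fell, with sums of 485 to 576 in WT and 654 to 686 in Piezo1cKO libraries. *Itgb3* rose 2.88-fold (limma adjusted p = 4.37e-11), and *Pf4* fell to 9.45% of WT (limma adjusted p = 7.09e-10). Most of the Piezo1cKO sum was reads of 2 integrin genes, *Itgb3* (371 ± 15.3 normalized reads) and *Itga2b* (269 ± 17.3). *Ppbp* went from 44, 57 and 54 recovered reads in WT to 0 in every Piezo1cKO library (limma adjusted p = 4.68e-09). *Itga2b* and *Ppbp* were chosen after their values were seen.

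Of the eosinophil list 4 of 7 rose and 2 fell, and its sums overlapped, at 7193 to 7772 in WT and 7322 to 7646 in Piezo1cKO libraries. Its peroxidase gene *Epx* fell to 23.8% (limma adjusted p = 1.19e-16), *Prg3* rose 2.31-fold (limma adjusted p = 2.2e-10), *Siglecf* rose 1.83-fold (limma adjusted p = 1.55e-08), and *Ccr3* was at 0. Of the monocyte and macrophage list 4 of 10 rose and 1 fell, with sums of 12434 to 12934 and 13908 to 14111. *Ccr2* rose 2.25-fold (limma adjusted p = 7.78e-12), *Cd68* 1.24-fold (limma adjusted p = 2.32e-07) and *C1qc* went from 0 reads to 21, 29 and 15 (limma adjusted p = 5.63e-06), while *C1qa* was at 0. Of the dendritic cell list 6 of 7 rose and 1 fell, with sums of 5887 to 6127 normalized reads in WT and 7999 to 8330 in Piezo1cKO libraries. Most of these were reads of *Irf8* (5184 ± 110 in WT and 6386 ± 185 in Piezo1cKO LSCs) and *Flt3* (648 ± 23.9 and 1606 ± 43.2). *Itgax*, *Siglech* and *Clec9a* had at most 24 reads in any library. Of the B cell list 4 of 5 rose and 0 fell, with sums of 12226 to 12590 and 22363 to 22746, most of them reads of *Ighm*. Of the T and NK cell list 2 of 4 rose and 2 fell. Its sums, 3998 to 4184 in WT and 2488 to 2536 in Piezo1cKO libraries, were nearly all *Nkg7*, which fell from 4095 ± 93.9 to 2457 ± 26.3 normalized reads (limma adjusted p = 2.4e-12). *Klrb1c* went the other way, from 0 reads in every WT library to 32, 38 and 52 (limma adjusted p = 1.02e-07), as did *Trac*, from 5, 2 and 2 reads to 17, 16 and 13 (limma adjusted p = 0.000351), and *Cd8a* was at 0. Of the erythroid list 0 of 5 rose and 2 fell (*Klf1* and *Epor*), with sums of 129 to 154 and 45 to 51. The genes named from these 4 lists were chosen after their values were seen. The part of such cells or programs in the differences of *Alox5* and the other members was not tested.

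**Figure D5:**
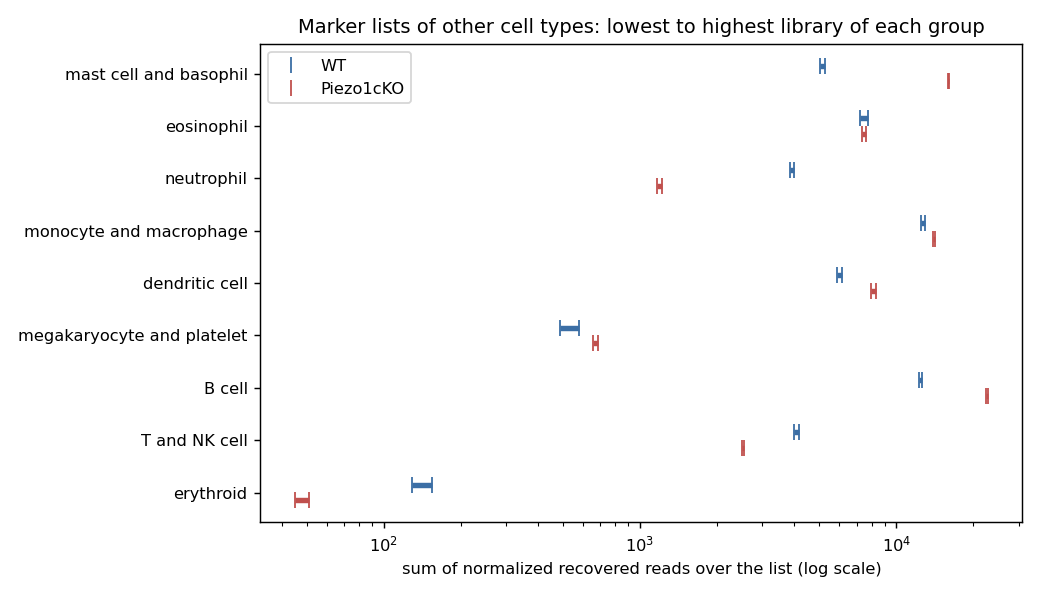
Sum of normalized recovered reads (horizontal axis, log scale) over each of 9 marker lists of other cell types, drawn from the lowest to the highest library of the 3 WT and the 3 Piezo1cKO libraries. The mast cell and basophil list lies at 5029 to 5286 in WT and 15884 to 16019 in Piezo1cKO libraries, the neutrophil list goes from 3850 to 4001 down to 1169 to 1214, and the groups of the eosinophil list overlap.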

How the data were processed

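RNA-seq of 3 WT and 3 Piezo1cKO LSC libraries was analysed. The authors, per their processing notes, used fastp (version 0.20.1), HISAT2 (version 2.2.1), featureCounts (version 2.0.1) and DESeq2 (version 1.28.1) on GRCm38. The deposited table holds log2 values in the form of a regularized log, a transform that the sources used here do not name: 26402 genes have values from -1.97 to 18.06 and 28965 are at 0 in every library. Counts had been thought possible, and the limma fit planned for log2 values was used.

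limma (version 3.58.1) in R (version 4.3.3) was run on 16746 genes, those whose deposited mean reached 1, with lmFit and eBayes with a trend, without pseudocount or covariates, with Benjamini-Hochberg adjustment over all of them. The DEG thresholds were 0.05 for the adjusted p and 1 for the absolute log2 fold change. The regularized log was undone by fitting its size factors and shrinkage, and 96.6% of recovered values of genes with means under 1000 reads (64.5% above) lay within 0.1 of a whole number, against 22.7% (means 1 to 1000) with the shrinkage set 10% off. Library pairs of a group differed by more than sampling noise (chi-square per gene 1.43 to 1.88), so none was counted as a duplicate. limma-voom took the recovered reads of the 17352 genes that had at least 10 reads. RPKM used GENCODE M21 exon lengths, all exons of a gene merged over its transcripts. Promoters came from RefSeq (GRCm38.p6), with entries for 8 members.

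The members, lists and tests were chosen with earlier results of these data known. Besides the members, genes named were DEGs, the 3 largest changes in each pathway list (mean at least 5), set receptors and next enzymes, up to 3 markers in each of 5 lists, and the 5 genes most like *Alox5*. Some markers are not reported here. Others are named as at or near 0 or as LSC genes. Exact permutation of 3 libraries against 3 cannot give a p under 0.1. Scripts were tested on simulated data. Other steps ran in Python (version 3.11.15) with pandas (version 2.3.3), numpy (version 2.4.6), matplotlib (version 3.10.9) and scipy (version 1.17.1).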

Additional observations from a re-analysis of the deposited data

How the results depend on the processing

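Recovered reads and the fold threshold moved the counts of calls, and no called result changed sign. With recovered reads, recovered reads on library totals, recovered reads with a replicate block and no fold threshold, in this order, the 43 higher DEGs among all genes became 2212, 2255, 2227 and 5298 and the 94 lower DEGs 2110, 2078, 2137 and 5258. For the other pathway genes the 2 higher DEGs became 10, 10, 10 and 26, and the 0 lower DEGs 10, 10, 10 and 19. For the members the 1 higher DEG became 3 without the fold threshold, and the 0 lower DEGs became 2, 2, 2 and 3. For the markers the 3 higher DEGs became 23, 24, 23 and 32 and the 6 lower 20, 20, 20 and 21. The deposited scale shrinks every difference, most for genes with few reads. The other filters, centring, no trend and leaving out 1 library kept these counts within 1.5 times. *Ptger2* lost its call with centred libraries and *Tbxa2r* with centred libraries and without the trend, and the cause was not tested.

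Same-numbered WT and Piezo1cKO libraries correlated in their deviations at 0.20, 0.16 and 0.07, each higher than any pair of unlike numbers, a hint from the data and not from the design. With the replicate block on the deposited scale there were 43 higher and 94 lower DEGs. Recovered reads with the block, or with 1 library left out, were added after the data were seen. With 4 to 9 reads per library, *Ltc4s* is limited by depth.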

Other observations

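Several pathway genes outside the naming rule, chosen here after their values were seen, went from near absence to presence or the reverse, and are given as values. *Alox8*, which encodes the mouse 8-lipoxygenase, had 0, 1 and 2 recovered reads in WT and 48, 31 and 57 in Piezo1cKO libraries, a ratio of 46.8 (95% counting interval 15.7 to 230, limma adjusted p = 3.15e-07 on the deposited scale). *Cyp2j6*, from the epoxygenase and epoxide hydrolase list, had 0 reads in WT and 16, 28 and 20 in Piezo1cKO libraries. It was at least 22-fold higher against 3 reads over the WT group (limma adjusted p = 3.54e-06). *Pla2g7*, the hydrolase of platelet-activating factor, had 0 reads in WT and 13, 14 and 5 in Piezo1cKO libraries, at least 11-fold higher (limma adjusted p = 0.000368).

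In the other direction, *Pparg*, a nuclear receptor that binds oxidized fatty acids, had 40, 36 and 44 recovered reads in WT and 1, 0 and 0 in Piezo1cKO libraries, a ratio of 0.0086 (95% counting interval 0.000216 to 0.0488, limma adjusted p = 2.03e-08). *Ggt5*, which encodes a gamma-glutamyl transferase that cuts leukotriene C4, had 11, 10 and 17 recovered reads in WT and 0 in Piezo1cKO libraries, at least 12.3-fold lower (limma adjusted p = 6.87e-05).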
